A study of Mus musculus with 7 samples.

Results

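The 10 genes described here are members of the Notch pathway that act between the cells of the vessel wall: the ligands Dll4, Jag1 and Jag2, the receptors Notch1, Notch4 and Notch3, and the target genes Hey1, Hey2, Heyl and Hes1. They were chosen by name and are 10 of the 32285 genes counted. Their RNA was measured in 7 single cell libraries of brain microvessels. The animals were 12 months old for 3 libraries and 3 months old for 4, all C57Bl6 (an inbred laboratory strain), with no treatment. Microvessels of 1 hemisphere, without cerebellum, brain stem and olfactory bulbs, were digested with collagenase and captured with beads against CD31, a surface protein of endothelial cells, so the pericytes and smooth muscle cells in the libraries are those that came along with the captured vessels. RNA molecules were counted by unique molecular identifiers (UMIs). The labels give no sex. They also mark the 12-month libraries as single index and the 3-month libraries as dual index, and the file headers give different counting software versions, so age cannot be told apart from these.

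Notch signalling passes between touching cells. A ligand on the surface of a cell binds a receptor on its neighbour, the receptor is cleaved, and its inner part enters the nucleus, where it joins the DNA-binding protein RBPJ and switches on targets of the Hes and Hey families, which are transcriptional repressors. In vessels, Dll4 with Notch1 and Notch4 is known for arterial identity and for limiting sprouting, and Jag1 on endothelium with Notch3 on the neighbouring mural cells for the maturation and upkeep of smooth muscle cells and pericytes.

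RefSeq promoter windows (build GRCm38.p6) were matched for 7 of the 10 genes, the ligands, the receptors and Hey2, so the other targets Hey1, Heyl and Hes1 were not searched, and GTGGGAA, a binding word of RBPJ, was searched on both strands. Hey2 was the only one of the 7 with a match, and it is shown for that match. Its window holds the word in both orientations, in capitals here, beginning 207 and 4 bases before the RefSeq start, which lies inside the gene span given for Hey2 below. The stretch is chr10:30842781-30843033 on the minus strand and ends 3 bases past the start.
Hey2: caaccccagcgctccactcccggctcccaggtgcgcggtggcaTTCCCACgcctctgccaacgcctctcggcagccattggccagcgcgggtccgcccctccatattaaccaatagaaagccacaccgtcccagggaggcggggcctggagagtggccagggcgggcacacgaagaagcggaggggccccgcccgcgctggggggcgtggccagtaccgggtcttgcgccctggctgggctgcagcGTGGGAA
The windows searched were 300 bases long, and the stretch shown is part of that of Hey2. The word stands in 2097 of the 32851 promoter windows (6.38%), and 33 windows (0.1%) hold it in both orientations. A match is a run of letters, not a shown binding site, and no binding was measured here.

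Filtering left 4975, 5985 and 8919 cells at 12 months, against 3949, 3976, 5535 and 3796 cells at 3 months. Median depths were 1094 to 2785 UMIs per cell at 12 months and 3083 to 5331 at 3 months, and any pair of libraries shared 1 to 24 barcodes. Clusters were named from marker genes, and neither the Notch genes nor the markers took part in clustering. The classes were 2302 arterial, 1971 venous and 23941 capillary endothelial cells, 1216 smooth muscle cells and 800 pericytes. Values are in CPM, the UMIs of a gene scaled to a common total over all UMIs of a class summed in 1 library. They are levels of RNA ends and are compared here between cells for 1 gene, not between genes. Microglia, which should lack most of these genes, were taken as the background of free RNA for Dll4, Jag1, Jag2, Notch4, Notch3, Hey1, Hey2 and Heyl, with means of 0.260 to 9.51 CPM. Notch1 (48.1 CPM) and Hes1 (88.3 CPM) stood higher in microglia. Whether these 2 values are free RNA or RNA of the microglia was not tested, so they are not used as a background.

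Among the arterial, venous and capillary endothelial cells, the 3 ligands, Notch1, Notch4, Hey1 and Hey2 shared 1 direction: higher in arterial cells. Fenestrated-type endothelial cells were not part of these tests and are described at the end. Of the 8 genes that passed the filter on low counts, 7 were higher in arterial than in capillary cells and none lower, where 20% of all genes tested were higher and 18.7% lower. Against venous cells 7 of 8 were higher again, where 22.1% of all genes were higher and 20.3% lower. In venous cells 6 of the 8 tested genes were lower than in capillary cells and none higher, where 21.8% of all genes were lower and 20.7% higher. All tests are edgeR quasi-likelihood tests with Benjamini-Hochberg adjustment over all genes, a call is an adjusted p under 0.05, and the library is a term of each comparison between classes.

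**Figure D1:**
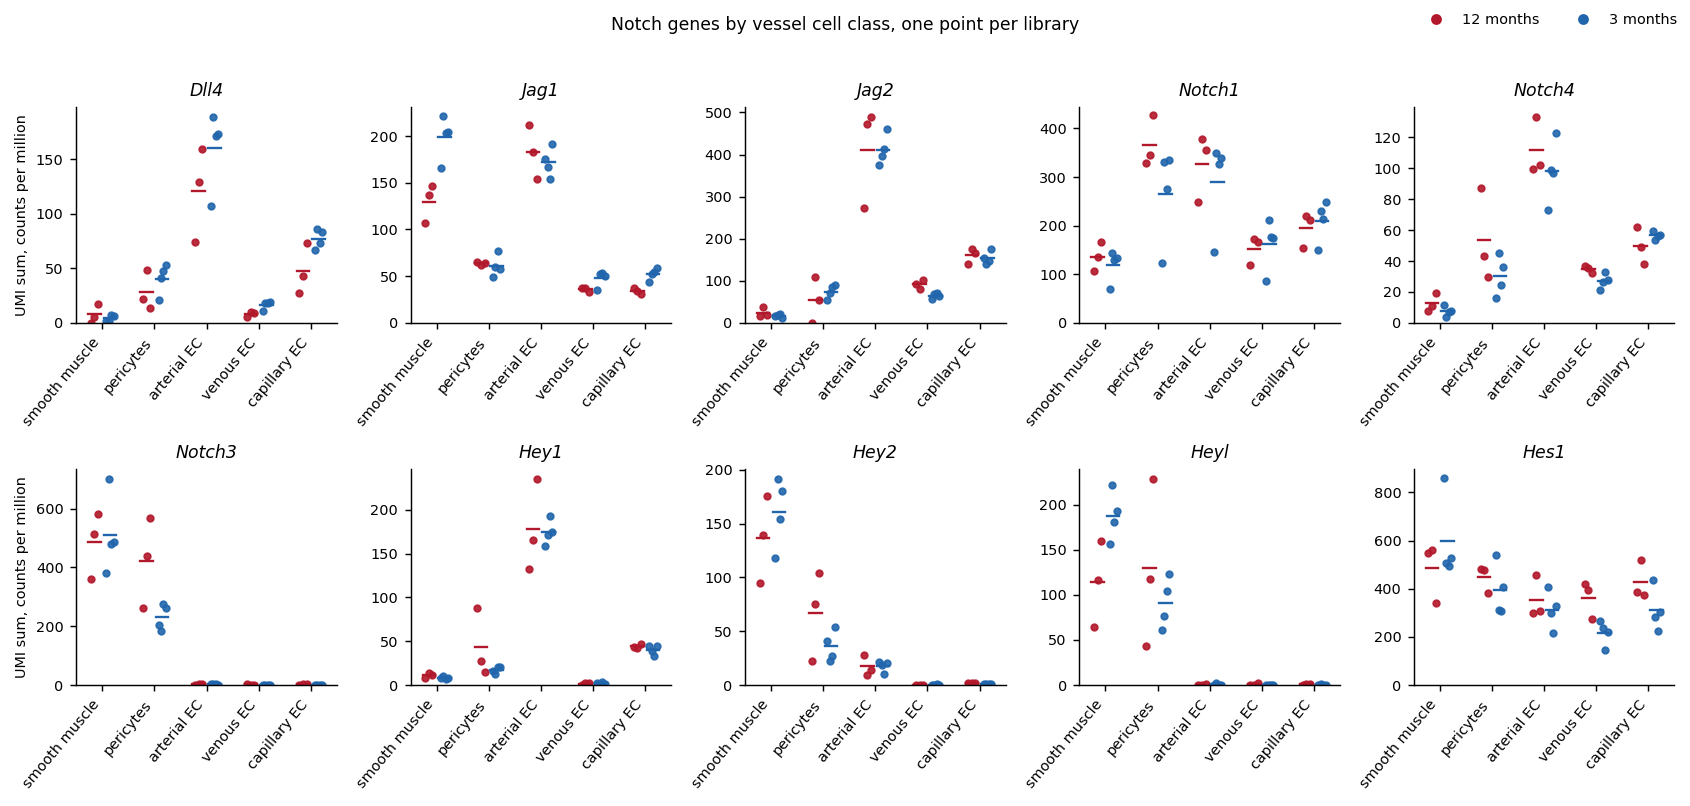
UMI sums in CPM (linear axis from 0) of the 10 Notch genes in 5 vessel cell classes, 1 point per library (red, 12 months, n = 3; blue, 3 months, n = 4), with a bar at each group's mean; EC, endothelial cells. Dll4, Jag2, Notch4 and Hey1 were highest in arterial cells in 7 of 7 libraries, and Notch3 and Hey2 in smooth muscle cells in 7 of 7.

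Dll4, the ligand of arteries and sprout tips, lies at chr2:119325784-119335962 on the plus strand (GRCm38, as for the positions below). Its lowest, median and highest levels over the 7 libraries were 74.2, 159 and 189 CPM in arterial cells, 5.08, 10.7 and 18.7 CPM in venous cells, and 27.5, 72.9 and 86.3 CPM in capillary cells. The arterial and venous ranges did not overlap, and in each library the arterial value was above the capillary one. The log2 fold change was 1.16 ± 0.07 for arterial over capillary cells (SE; edgeR adjusted p = 6.17e-11) and -2.24 ± 0.10 for venous over capillary cells (edgeR adjusted p = 9.32e-14).

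Jag1, the ligand known for signalling to mural cells, lies at chr2:137081456-137116644 on the minus strand. It ranged over 154, 175 and 212 CPM (lowest, median, highest) in arterial cells, 33.3, 37.6 and 53.8 CPM in venous cells and 30.7, 43.5 and 58.5 CPM in capillary cells. Unlike Dll4, it did not pass the test between venous and capillary cells (log2 fold change -0.03 ± 0.07, edgeR adjusted p = 0.76), whose ranges overlapped. Arterial cells were 1.95 ± 0.10 higher on the log2 scale than capillary cells (edgeR adjusted p = 2.27e-12), with no overlap.

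Jag2, the other Jagged ligand, lies at chr12:112907819-112929776 on the minus strand. It had a lowest, median and highest level of 274, 413 and 489 CPM in arterial cells, 56.1, 69.9 and 102 CPM in venous cells and 139, 154 and 176 CPM in capillary cells. No range overlapped another, so each library placed arterial above capillary and capillary above venous cells. The log2 fold change was 1.39 ± 0.06 for arterial over capillary cells (edgeR adjusted p = 4e-13) and -1.05 ± 0.08 for venous over capillary cells (edgeR adjusted p = 1.44e-09).

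The endothelial receptors followed with smaller steps. Notch1, at chr2:26457903-26516663 on the minus strand and the main receptor of Dll4, averaged 306 ± 81.5 CPM in arterial, 158 ± 41.9 CPM in venous and 204 ± 37.7 CPM in capillary cells (SD, n = 7). Notch4, at chr17:34564268-34588503 on the plus strand and largely restricted to endothelium, averaged 104 ± 19.4, 30.3 ± 5.46 and 53.7 ± 7.99 CPM in arterial, venous and capillary cells. The ranges of Notch4 did not overlap between the 3 classes, while those of Notch1 did. Within libraries the arterial value was above the capillary one in 6 of 7 libraries for Notch1 and in 7 of 7 for Notch4. Arterial over capillary log2 fold changes were 0.56 ± 0.07 for Notch1 (edgeR adjusted p = 2.16e-06) and 0.98 ± 0.09 for Notch4 (edgeR adjusted p = 3.79e-08). Notch3, at chr17:32120820-32166852 on the minus strand, stayed between 0.763 and 3.99 CPM in all arterial, venous and capillary sums, and passed the count filter only for venous over capillary cells (log2 fold change -0.39 ± 0.35, edgeR adjusted p = 0.40).

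Among the targets, Hey1 and Hey2 had the steepest differences and Hes1 the least. Hey1, at chr3:8663359-8667256 on the minus strand, was 133, 172 and 235 CPM (lowest, median, highest) in arterial cells, 0, 2.20 and 3.21 CPM in venous cells and 32.8, 43.1 and 47.1 CPM in capillary cells. The fitted log2 fold change was 2.10 ± 0.08 for arterial over capillary cells (edgeR adjusted p = 2.01e-14) and -4.29 ± 0.18 for venous over capillary cells (edgeR adjusted p = 1.04e-13). The 3 classes did not overlap.

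Hey2, at chr10:30832359-30842801 on the minus strand, was 9.50, 19.0 and 28.0 CPM in arterial cells, at most 0.482 CPM in venous cells, and 0.603, 1.39 and 1.95 CPM in capillary cells. Arterial cells were 3.72 ± 0.25 higher than capillary cells on the log2 scale (edgeR adjusted p = 1.18e-10). Heyl, at chr4:123233556-123249875 on the plus strand, held 8, 8 and 48 UMIs in all arterial, venous and capillary sums together and passed the filter in none of these 3 comparisons. Hes1, at chr16:30064384-30067796 on the plus strand and induced by many signals beside Notch, averaged 330 ± 79.1, 280 ± 96 and 361 ± 99.4 CPM in arterial, venous and capillary cells. Its ranges overlapped between all 3 classes. It was lower in venous than in capillary cells (log2 fold change -0.37 ± 0.08, edgeR adjusted p = 0.00044), and did not pass the test for arterial over capillary cells (-0.12 ± 0.07, edgeR adjusted p = 0.17) or arterial over venous cells (0.25 ± 0.10, edgeR adjusted p = 0.058; 0.34 and 0.00059 without 12-month replicate 1).

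The arterial class held 2 clusters, large arteries (389 cells) and arterioles (1913 cells), and these differed in which Notch genes were high. Of 9 tested genes, Hey2 and Jag1 were higher and Hey1 and Jag2 lower in large arteries than in arterioles, where 9.48% of all genes were higher and 12.3% lower. Large-artery sums with at least 20 cells were available in 6 libraries, since 3-month replicate 3 held 19 such cells.

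Hey2 was 63.5, 71.2 and 84.7 CPM in large arteries of the 12-month libraries and 97.7, 146 and 111 CPM in those of 3-month replicates 1, 2 and 4. In arterioles it was 7.64, 3.32 and 6.91 CPM at 12 months and 3.55, 7.76, 5.56 and 7.43 CPM at 3 months. It was higher in large arteries in 6 of 6 libraries, with no overlap of the segments and a log2 fold change over arterioles of 4.02 ± 0.26 (edgeR adjusted p = 1.74e-16). Jag1 was 204, 351 and 200 CPM in large arteries at 12 months and 252, 302 and 407 CPM at 3 months, against 216, 166 and 150 CPM in arterioles at 12 months and 158, 154, 150 and 162 CPM at 3 months. It was higher in large arteries in 5 of 6 libraries (log2 fold change 0.90 ± 0.13, edgeR adjusted p = 3.22e-07).

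Hey1 was opposite to Hey2. It was 56.8, 109 and 90.7 CPM in large arteries at 12 months and 72.0, 82.9 and 103 CPM at 3 months, against 176, 171 and 250 CPM in arterioles at 12 months and 179, 180, 201 and 185 CPM at 3 months. The ranges did not overlap, and the log2 fold change of large arteries over arterioles was -1.14 ± 0.17 (edgeR adjusted p = 8.63e-07). Jag2 was lower in large arteries in 6 of 6 libraries, with means of 235 ± 82.2 CPM (SD, n = 6) against 440 ± 59.1 CPM in arterioles (SD, n = 7; log2 fold change -0.88 ± 0.11, edgeR adjusted p = 3.38e-08). Dll4, Notch1, Notch4, Notch3 and Hes1 did not pass the test between these segments. The median log2 fold change of all genes in this comparison was -0.10 with the scaling used and 0.01 with DESeq2's size factors, a shift of 0.11 that is smaller than each of the 4 changes.

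**Figure D2:**
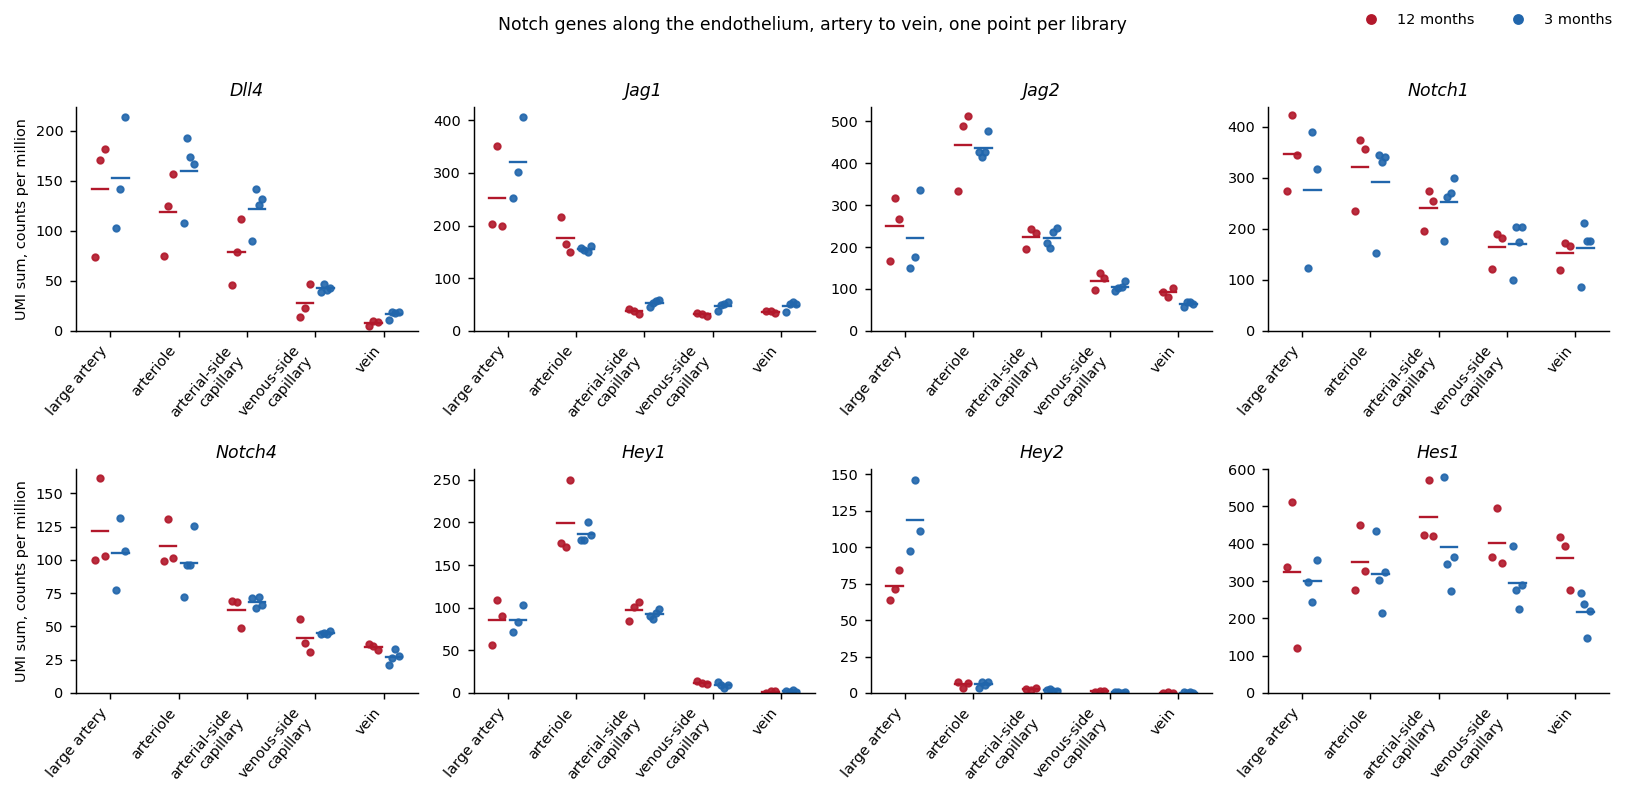
UMI sums in CPM (linear axes from 0) of 8 Notch genes in 5 endothelial segments from large artery to vein, 1 point per library (red, 12 months; blue, 3 months), with a bar at each group's mean; large artery has 6 libraries, the others 7. Hey2 sits between 63.5 and 146 CPM in large arteries and at or under 7.76 CPM in every other segment, while Hey1 and Jag2 peak in arterioles.

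From arterioles to the arterial side of the capillary bed, 7 of 9 genes stepped down, so that they were higher in arterioles, and Hes1 was lower there; 14.3% of all genes were higher in arterioles and 11.5% lower. Jag1 had the largest step, 1.75 ± 0.09 on the log2 scale (edgeR adjusted p = 5.16e-20), with 165 ± 23.2 CPM in arterioles and 46.4 ± 10.1 CPM in arterial-side capillaries (SD, n = 7). Hey1 and Jag2 stepped by 0.99 ± 0.08 and 0.95 ± 0.07. The steps of Dll4 (0.44 ± 0.07), Notch1 (0.25 ± 0.06) and Hes1 (-0.37 ± 0.10) were called with all cells, but rest on a cluster of 4378 arterial-side capillary cells led by immediate early genes, whose 7 summed genes stood at 16811 CPM in it against 4489 CPM in the other arterial-side cluster. Without that cluster they were 0.11, 0.01 and -0.08 and none was called (edgeR adjusted p = 0.35, 0.97 and 0.62).

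Within the capillary bed 7 of 9 genes were higher on the arterial than on the venous side and none lower, where 13.2% of all genes were higher and 13% lower. Hey1 fell most, to 10.5 ± 2.53 CPM on the venous side, against 94.4 ± 8.26 CPM on the arterial side (SD, n = 7), a log2 fold change of 3.31 ± 0.10 for arterial over venous side (edgeR adjusted p = 3.15e-29). Dll4 stood at 104 ± 34.1 CPM on the arterial and 36.2 ± 12.8 CPM on the venous side (log2 fold change 1.53 ± 0.07, edgeR adjusted p = 8.18e-22), and Jag2 at 223 ± 21.6 CPM on the arterial and 112 ± 16.1 CPM on the venous side (1.01 ± 0.07). Jag1 stood at 46.4 ± 10.1 CPM on the arterial and 41.0 ± 9.91 CPM on the venous side and did not pass, with a log2 fold change of 0.18 ± 0.09 (edgeR adjusted p = 0.14; 0.27 and 0.029 without the immediate early gene cluster). Hes1 was 0.33 ± 0.09 higher on the arterial side (edgeR adjusted p = 0.0051), a call that was lost without that cluster (0.01, edgeR adjusted p = 0.96) and with doublets kept (0.21, edgeR adjusted p = 0.061).

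From the venous side of the capillary bed to the vein 5 of 9 genes declined again and none was lower in the capillaries, where 17.9% of all genes were higher and 19.5% lower there. Hey1 was 2.19 ± 0.24 and Dll4 1.39 ± 0.11 higher in venous-side capillaries on the log2 scale, followed by Jag2 (0.56 ± 0.08), Notch4 (0.49 ± 0.10) and Hes1 (0.29 ± 0.09, which without 3-month replicate 3 had an edgeR adjusted p of 0.083). Jag1, Notch1, Notch3 and Hey2 did not pass, although Hey2 did without 3-month replicate 3 (1.76, edgeR adjusted p = 0.045). Along the whole vessel, then, Hey1, Dll4, Jag2 and Notch4 declined at each step from arteriole to vein, although the first step of Dll4 rests on the cluster named above, while Jag1 declined from arterioles to the arterial-side capillaries and passed no later test with all cells.

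The mural cells carried the receptor side of the Jagged pair. Notch3, the receptor of pericytes and smooth muscle cells, had its lowest, median and highest levels at 361, 486 and 700 CPM in smooth muscle cells and 183, 263 and 567 CPM in pericytes, against at most 3.99 CPM in any arterial, venous or capillary sum. Heyl, a Notch target of mural cells, was at 64.6, 160 and 222 CPM in smooth muscle cells and 43.8, 104 and 228 CPM in pericytes. Hey2 was at 95, 154 and 191 CPM in smooth muscle cells and 21.9, 41.0 and 104 CPM in pericytes. Neither gene's smooth muscle or pericyte range overlapped that of capillary cells, and neither smooth muscle range overlapped that of arterial cells.

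Smooth muscle cells were set against arterial endothelial cells, their neighbours across the wall of an artery. All 10 genes passed the filter: 4 were higher (where 30% of all genes were) and 5 lower (33.1% of all genes). Fitted log2 fold changes were 8.06 ± 0.22 for Heyl, 7.77 ± 0.14 for Notch3 and 3.48 ± 0.16 for Hey2, and Hes1 was 0.92 ± 0.11 higher. Dll4 (-4.65 ± 0.21), Jag2 (-4.14 ± 0.14), Hey1 (-3.99 ± 0.14), Notch4 (-3.43 ± 0.18) and Notch1 (-1.09 ± 0.08) were lower, and the largest edgeR adjusted p among these 5 was that of Notch1 (2.2e-10). Jag1 was the ligand that both sides held: 106, 166 and 222 CPM (lowest, median, highest) in smooth muscle cells and 154, 175 and 212 CPM in arterial cells, with overlapping ranges and a log2 fold change of 0.18 ± 0.12 (edgeR adjusted p = 0.21; called without 12-month replicate 1, 0.37, and with doublets kept, 0.44). Endothelial markers stood in smooth muscle sums at 0.0278 to 0.0907 of their level in capillary cells of the same library (library medians over 12 markers), while Jag1 stood at 2.82 to 4.77 times its capillary level.

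Pericytes were set against capillary endothelial cells, on which they sit. Of 10 genes 5 were higher and 4 lower, where 15% of all genes were higher and 13% lower. Heyl (7.72 ± 0.20), Notch3 (7.48 ± 0.16) and Hey2 (5.33 ± 0.28) had the largest log2 fold changes, and Notch1 (0.50 ± 0.11) and Jag1 (0.45 ± 0.13) were higher by less. The call of Jag1 was lost without 12-month replicate 2 (edgeR adjusted p = 0.078), without 3-month replicate 3 (0.079) and with no filter on low counts (0.062). Jag2 (-1.09 ± 0.13), Hey1 (-1.03 ± 0.18), Dll4 (-0.84 ± 0.18) and Notch4 (-0.61 ± 0.15) were lower. Hes1 did not pass (0.17 ± 0.10, edgeR adjusted p = 0.26).

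The pericyte sums also held endothelial RNA. The 12 endothelial markers stood in pericyte sums at 0.350 to 0.727 of their capillary level (library medians), none was at 0, and their summed level was 8228 to 13236 CPM at 12 months and 11258 to 15173 CPM at 3 months. The medians of Dll4, Jag2, Notch4 and Hey1 over libraries were 0.640, 0.503, 0.781 and 0.466 of the capillary level, within the range of the markers over all libraries (0.268 to 0.970). Within single libraries they did not always lie there: in 3-month replicate 1 all 4 were below the lowest marker (0.276 to 0.369, lowest marker 0.464), while Hey1 (2.03) and Notch4 (1.41) in 12-month replicate 1, on 4 UMIs each, and Dll4 (1.14) in 12-month replicate 2 were above the highest. The part of endothelial RNA in these 4 genes was not tested. Pericytes whose share of endothelial marker UMIs was under 0.1 of the capillary median were also summed apart. These numbered 48 and 148 in 12-month replicates 2 and 3 and 23, 42 and 40 in 3-month replicates 2, 3 and 4, and the other 2 libraries held fewer than 20.

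In the pericytes low in endothelial RNA, Notch3 and Heyl were higher than in all pericytes, and Dll4, Jag2 and Hey1 rested on few UMIs. Notch3 was 1043 and 925 CPM at 12 months and 671, 819 and 875 CPM at 3 months. Heyl was 253 and 317 CPM at 12 months and 285, 280 and 433 CPM at 3 months. Every one of these values lay above the level of all pericytes in the same library. Dll4 was 29.8 and 4.95 CPM at 12 months and 0, 20.7 and 0 CPM at 3 months, or 5 UMIs in all. Jag2 rested on 3 UMIs in 1 library and Hey1 on 1 UMI. Notch1, which has endothelial and mural expression, remained at 432 and 569 CPM at 12 months and 520, 539 and 358 CPM at 3 months, with a median of 2.27 times the capillary level, and Jag1 at 69.3 to 149 CPM (2.26 times).

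**Figure D3:**
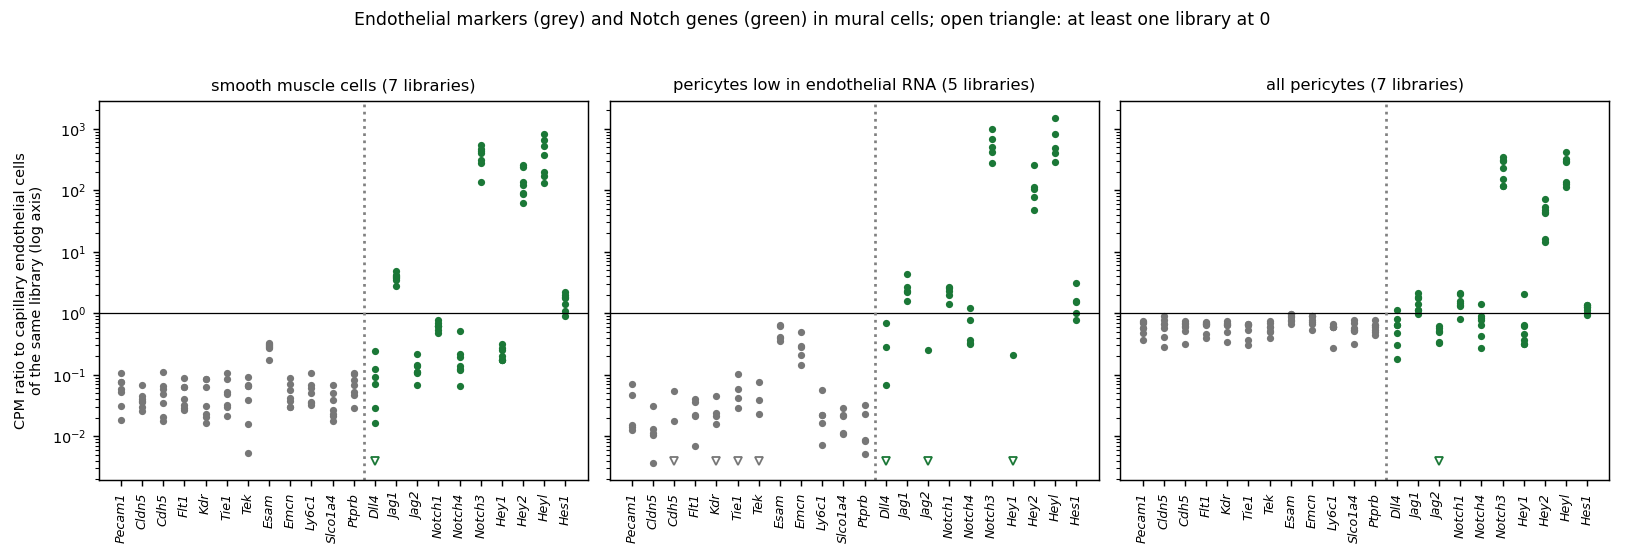
CPM in mural cells divided by CPM in capillary endothelial cells of the same library (log axis), for 12 endothelial markers (grey) and the 10 Notch genes (green), 1 point per library, in smooth muscle cells, pericytes low in endothelial RNA and all pericytes; an open triangle means at least 1 library at 0, and the line marks the capillary level. Notch3, Hey2 and Heyl lie far above 1 in all 3 panels, and the medians of Dll4, Jag2 and Hey1 lie within the range of the markers.

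Between the 2 mural cell types, the direction for Notch3, Heyl and Jag2 depended on which pericytes were summed. With all pericytes, smooth muscle cells were higher for Hey2 (1.98 ± 0.20), Jag1 (1.86 ± 0.14), Notch3 (1.11 ± 0.16), Heyl (0.92 ± 0.18) and Hes1 (0.77 ± 0.12), 5 of 10 genes where 26.5% of all genes were higher, and lower for the other 5 (22.8% of all genes). Hey1 was the weakest of these (-0.74 ± 0.29, edgeR adjusted p = 0.037), and its call was lost without 12-month replicate 1, 12-month replicate 2, 3-month replicate 3 or 3-month replicate 4 (edgeR adjusted p from 0.060 to 0.12) and at clustering resolution 1.0 (0.37). Against pericytes low in endothelial RNA, Notch3 (-0.36, edgeR adjusted p = 0.010) and Heyl (-0.56, edgeR adjusted p = 0.0022) were lower in smooth muscle cells, and Jag2 was higher (2.05, edgeR adjusted p = 0.018), against 3 UMIs in those pericytes. Hes1 (0.27, edgeR adjusted p = 0.10) and Notch4 (-1.12, edgeR adjusted p = 0.14) were no longer called, Dll4 and Hey1 did not pass the count filter, Hey2 and Jag1 remained higher, and Notch1 remained lower. With doublets kept the cells were clustered anew, and the smooth muscle class then held other numbers of cells (536 in place of 336 in 12-month replicate 2). In those classes Dll4, Jag2, Notch4 and Hey1 were higher in smooth muscle cells.

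The other genes of the pathway came from a list of 64 members. For arterial over capillary cells 12 of 49 tested were higher and 10 lower, where 20% of all genes were higher and 18.7% lower. The list's median log2 fold change was 0.00, beside -0.02 for all genes. The genes named here are those past the test with at least 20 CPM and the smallest p. Nrarp, a Notch target that feeds back on the pathway, was higher in arterial cells (1.60 ± 0.09), as was the gamma-secretase subunit Ncstn (0.53 ± 0.07), and another subunit, Aph1a, was lower (-0.49 ± 0.06). Nrarp stood at 54.6 ± 15.7 CPM in arterial, 14.6 ± 7.63 CPM in venous and 17.7 ± 5.35 CPM in capillary cells (SD, n = 7).

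In venous over capillary cells 13 of 51 were higher and 12 lower, where 20.7% of all genes were higher and 21.8% lower. The first 4 by p were higher in venous cells: the ligand Dll1 (2.22 ± 0.14), the glycosyltransferase Lfng, which modifies Notch receptors (1.40 ± 0.07), the gamma-secretase subunit Psen2 (0.81 ± 0.07) and the ubiquitin ligase Neurl2 (0.60 ± 0.09). Dll1 stood at 29.1 ± 7.69 CPM in venous and 6.61 ± 2.38 CPM in capillary cells, opposite to Dll4. Lfng stood at 95 ± 15.7 CPM in venous and 37.3 ± 2.09 CPM in capillary cells, and was lower in arterial than in venous cells (log2 fold change -1.86 ± 0.13). Between segments, Lfng was lower at both steps from vein to arterial-side capillary, with -1.21 ± 0.08 for venous-side capillary over vein and -0.66 ± 0.10 for arterial-side over venous-side capillary. In large arteries over arterioles 5 of 50 were higher, among them Mfng, a glycosyltransferase (1.56 ± 0.15), and Dll1 (1.96 ± 0.47), and 2 lower. Of all genes in that comparison 9.48% were higher and 12.3% lower.

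In pericytes over capillary cells 10 of 52 were higher and 8 lower, where 15% of all genes were higher and 13% lower. Dtx4 (6.72 ± 0.39) and Dtx3 (2.59 ± 0.13), of the Deltex family of ubiquitin ligases, the coactivator Maml3 (1.28 ± 0.20) and Nrarp (1.61 ± 0.17) were higher. Dtx4 averaged 30.8 ± 9.52 CPM in pericytes, 1.21 ± 1.38 CPM in smooth muscle cells and 0.279 ± 0.199 CPM in capillary cells. In smooth muscle over arterial cells 10 of 50 were higher, led by Neurl1b, a ligase that acts on ligands (6.0 ± 0.27), and Dtx3 (2.05 ± 0.10). In the same comparison 23 were lower, led by Egfl7, a secreted endothelial protein (-4.16 ± 0.14), and the receptor-cleaving protease Adam10 (-2.45 ± 0.12). Of all genes 30% were higher and 33.1% lower there. Neurl1b averaged 40.2 ± 19.7 CPM in smooth muscle cells and 9.24 ± 6.41 CPM in pericytes, and was at or under 2.06 CPM on average in arterial, venous and capillary cells. In smooth muscle cells over pericytes 11 of 49 were higher and 16 lower, with a median of -0.12 beside 0.05 for all genes. Of all genes 26.5% were higher and 22.8% lower. In arterial over venous cells 13 of 50 were higher and 14 lower, with a median of -0.02 beside 0.00. Of all genes 22.1% were higher and 20.3% lower.

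Likeness over the 35 sums of 7 libraries and 5 classes was measured for 4671 genes as Pearson's r of log2 CPM, as a description over sums that share libraries. Notch3 was most like Daam2, Slc38a11 (both r = 0.994) and Plekhg3, Heyl most like Carmn (0.988), and Hey2 most like Mcam (0.965). Among endothelial patterns, Hey1 was most like Kank4 (0.949), Jag2 like Snx10 (0.948), Dll4 like Arl15 (0.930) and Notch4 like Cmpk2 (0.917). Jag1 (Npnt, 0.897), Notch1 (Rbms1, 0.877) and Hes1 (Malat1, 0.833) had the loosest partners.

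The comparison of ages asks whether this distribution differs between mice of 12 and 3 months. In arterial endothelial cells none of 8 tested genes was called, also at an unadjusted p under 0.05, and 0.56% of all genes were called in either direction. The 12-month and 3-month ranges of all 10 genes overlapped. Hey1, for example, was 133, 166 and 235 CPM at 12 months and 159, 172, 194 and 175 CPM at 3 months.

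In capillary cells none of 9 tested genes was called either, and 4.61% of all genes were called. Of the 9, 4 had an unadjusted p under 0.05. The share of all genes at that unadjusted level was not counted in any class, so such numbers are description only. Jag1 came nearest, at 37.8, 34.3 and 30.7 CPM at 12 months and 43.5, 52.5, 54.7 and 58.5 CPM at 3 months. Every 12-month value was below every 3-month value, and the log2 fold change was -0.50 ± 0.14 (edgeR adjusted p = 0.075). It was called with DESeq2 (-0.52, adjusted p = 0.024), without the filter on low counts (edgeR adjusted p = 0.026) and without 3-month replicate 1 (edgeR adjusted p = 0.011). The capillary class itself differed in make-up: a cluster with no segment name, in which Jag1 stood at 72.0 CPM against 36.2 to 54.5 CPM in the other 4 capillary clusters, held 3.68% of the class at 12 months and 20.0% at 3 months on average. Its part in the result was not tested. Dll4 was 27.5, 42.7 and 72.9 CPM at 12 months and 66.4, 86.3, 73.2 and 82.8 CPM at 3 months (log2 fold change -0.54 ± 0.25, edgeR adjusted p = 0.30; -0.98 and 0.027 without 12-month replicate 3). Hes1 was 387, 519 and 373 CPM at 12 months and 436, 282, 226 and 303 CPM at 3 months (0.58 ± 0.23, edgeR adjusted p = 0.20; 0.74 and 0.031 without 3-month replicate 1). Hey2 did not overlap between the ages either, but at no more than 1.95 CPM.

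In venous cells none of 6 tested genes was called, and 2.46% of all genes were called. Of the 6, 4 had an unadjusted p under 0.05, a level at which the share of all genes was not counted. Dll4 was 5.08, 9.55 and 8.89 CPM at 12 months and 10.7, 18.6, 18.1 and 18.7 CPM at 3 months (log2 fold change -0.89 ± 0.27). Jag2 was 92.5, 80.4 and 102 CPM at 12 months and 56.1, 69.2, 69.9 and 64.1 CPM at 3 months (0.59 ± 0.18). Hes1 was 418, 394 and 276 CPM at 12 months and 268, 239, 146 and 219 CPM at 3 months (0.81 ± 0.25). The ages did not overlap for any of these 3 genes, nor for Notch3, which stayed at or under 3.05 CPM and was not tested. The share of all genes whose ages do not overlap was not counted in any class, so non-overlap is given here as description only. Each of the 3 had an edgeR adjusted p of 0.13. Without 3-month replicate 1 Dll4 (-0.99, edgeR adjusted p = 0.025) and Hes1 (0.98, edgeR adjusted p = 0.0085) were called.

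A sum of 7 immediate early genes, which respond within minutes to handling and other stimuli, moved with age in the same sums. In arterial cells, where no Notch gene was called between the ages, it was 13553 to 18716 CPM at 12 months and 6406 to 7863 CPM at 3 months. It was 14008 to 18119 CPM in capillary cells at 12 months and 4673 to 5902 CPM at 3 months, 18003 to 18799 CPM in venous cells at 12 months and 6280 to 8957 CPM at 3 months, and in microglia 19743 to 28053 CPM at 12 months and 11959 to 16315 CPM at 3 months. In pericytes it was 6956 to 10808 CPM at 12 months and 4912 to 5741 CPM at 3 months, and in smooth muscle cells 12440 to 25411 CPM at 12 months and 7608 to 11624 CPM at 3 months. With the immediate early gene cluster removed, none of the Notch genes was called between the ages in capillary cells. None was called with all cells either, so this cannot show the part of the immediate early genes. The part of their sum in the values of Hes1 and the other genes was not tested.

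In smooth muscle cells none of 9 tested genes was called, and 0.177% of all genes were called. Of the 9, 2 had an unadjusted p under 0.05, a level at which the share of all genes was not counted. Jag1 was 106, 137 and 147 CPM at 12 months and 166, 222, 203 and 204 CPM at 3 months, with no overlap (log2 fold change -0.62 ± 0.21, edgeR adjusted p = 0.39). Heyl was 64.6, 117 and 160 CPM at 12 months and 156, 222, 180 and 193 CPM at 3 months (-0.70 ± 0.24, edgeR adjusted p = 0.42). Notch3 was 361, 513 and 580 CPM at 12 months and 379, 700, 478 and 486 CPM at 3 months, and the ages overlapped (-0.10 ± 0.24, edgeR adjusted p = 0.96).

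Pericytes were the class with calls between the ages: 2 of 10 genes were higher at 12 months and none lower, where 1.4% of all genes were higher and 0.433% lower. Notch3 was 263, 438 and 567 CPM at 12 months and 205, 183, 276 and 262 CPM at 3 months (log2 fold change 0.97 ± 0.26, edgeR adjusted p = 0.048). Hey2 was 21.9, 75.2 and 104 CPM at 12 months and 41.0, 22.6, 27.0 and 54.4 CPM at 3 months (1.25 ± 0.32, edgeR adjusted p = 0.041). The ranges overlapped for both, since 12-month replicate 1, with 26 pericytes, lay among or below the 3-month libraries. The summed level of 12 pericyte markers moved the same way, at 17022 to 30836 CPM in pericyte sums at 12 months and 10557 to 14478 CPM at 3 months, with no marker at 0. In the pericytes low in endothelial RNA, where that sum was 39955 to 47209 CPM at 12 months and 35869 to 47889 CPM at 3 months, Notch3 (0.25, edgeR adjusted p = 0.86) and Hey2 (0.39, edgeR adjusted p = 0.90) were not called. Both calls were also lost without 12-month replicate 3 (0.70 and 0.95, edgeR adjusted p = 0.72 and 0.69), and without 12-month replicate 2, 3-month replicate 2 or 3-month replicate 3 (edgeR adjusted p from 0.089 to 0.20). The call of Notch3 was lost without 3-month replicate 4 too (edgeR adjusted p = 0.12).

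**Figure D4:**
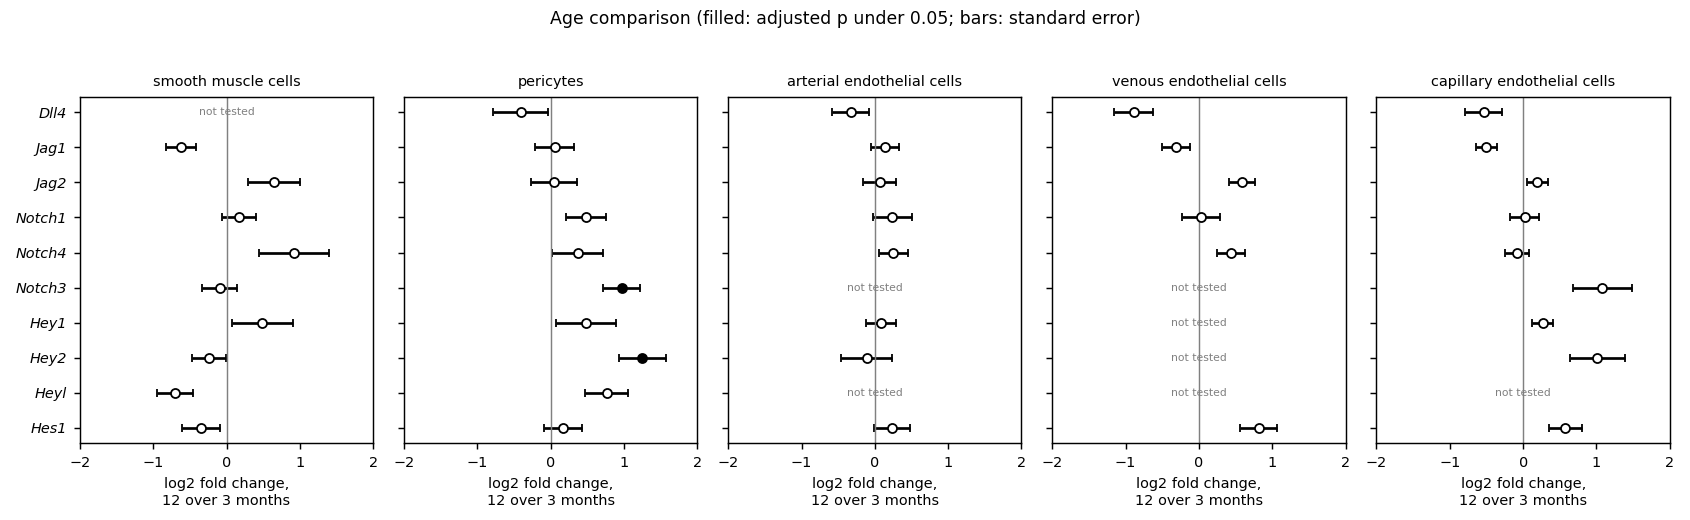
Log2 fold change of 12 over 3 months (horizontal axis, bars are standard errors of the edgeR fit) for the 10 Notch genes in 5 vessel cell classes; filled points have an adjusted p under 0.05. Filled points appear in the pericyte panel alone, at 0.97 for Notch3 and 1.25 for Hey2.

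Whether the difference between classes itself changed with age was tested as an interaction. For arterial over capillary cells 1 of 8 genes was called, where 0.208% of all genes were higher and 0.569% lower. The arterial excess of Jag1 was larger at 12 months by 0.69 ± 0.12 on the log2 scale (edgeR adjusted p = 0.0039). Jag1 averaged 183 CPM in arterial and 34.2 CPM in capillary cells at 12 months, and 172 CPM in arterial and 52.3 CPM in capillary cells at 3 months, so the larger part of the change lay in the capillary value. The arterial class held 19.1% large-artery cells at 12 months and 13.2% at 3 months on average, and 38.2% in 12-month replicate 1. The call was lost without 12-month replicate 2 (0.67, edgeR adjusted p = 0.067). Notch4 was called without 12-month replicate 1 (0.55, edgeR adjusted p = 0.022; 0.44 and 0.21 with all libraries).

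For smooth muscle cells over pericytes 3 of 10 genes had a lower ratio at 12 months and none a higher one, where 1.37% of all genes were lower and 1.66% higher. The interaction was -1.25 ± 0.24 for Heyl (edgeR adjusted p = 0.00021), -1.38 ± 0.28 for Hey2 (edgeR adjusted p = 0.00068) and -0.97 ± 0.21 for Notch3 (edgeR adjusted p = 0.0011). Heyl averaged 114 CPM in smooth muscle cells and 130 CPM in pericytes at 12 months, and 188 CPM in smooth muscle cells and 91.1 CPM in pericytes at 3 months. With DESeq2 the calls of Hey2 and Notch3 were lost (DESeq2 adjusted p = 0.083 and 0.091), and that of Notch3 was also lost with doublets kept (edgeR adjusted p = 0.16) and with at least 1000 genes per cell (edgeR adjusted p = 0.084). The call of Heyl was lost without 12-month replicate 3 (-0.96, edgeR adjusted p = 0.072), and Dll4 was called without 12-month replicate 2 (3.37, edgeR adjusted p = 0.024; 1.40 and 0.36 with all libraries). Egfl7 (1.47 ± 0.23) and Aph1a (1.07 ± 0.30), of the pathway list, moved the other way. With pericytes low in endothelial RNA the 3 values were -0.22, -0.53 and -0.22 and none was called. The pericyte and endothelial marker sums given above differ between the ages in the same pericyte sums, and their part in the interaction was not tested beyond this.

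Of the 64 other pathway genes, none was called between the ages in arterial cells, smooth muscle cells or pericytes. In capillary cells 2 of 52 tested were lower at 12 months, Nrarp (-0.65 ± 0.15, edgeR adjusted p = 0.034) and Neurl2 (-0.84 ± 0.19, edgeR adjusted p = 0.029), and 1, Neurl3, was higher. Of all genes there 1.21% were lower and 3.4% higher. In venous cells 1 of 49 tested was higher, Neurl3 (2.13 ± 0.48, edgeR adjusted p = 0.030), and none lower, where 2.06% of all genes were higher and 0.395% lower. With counts this small the calls are description only. These genes were below 20 CPM in the capillary or venous class and were named after their values were seen.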

How the data were processed

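The deposited matrices hold UMI counts per gene and cell barcode, as whole numbers that the authors did not normalize. Per the submitters' processing notes, the authors used Cell Ranger, Seurat and the build mm10. Their parameters were not in the sources used here. Barcodes with under 500 genes or over 15% mitochondrial UMIs were removed, as were the highest doublet scores (scrublet in scanpy 1.11.5), 0.8% per 1000 barcodes. Total UMIs were 8706961 to 44861008 per library. Cells were integrated and clustered with Seurat 5.3.0 (2000 variable features, 30 principal components, resolution 0.5), and endothelial cells again. Clusters were named from marker lists. Those with fewer than 3 raised markers or with close scores for different classes stayed unnamed, and no cluster was named as mid-capillary.

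Counts were summed per library and class (at least 20 cells) and tested with edgeR 4.0.16 in R 4.3.3 (TMM, filterByExpr, quasi-likelihood test, Benjamini-Hochberg over all genes), by age in each class and with the library as a term between classes; standard errors are the log2 fold change divided by the root of F. Tests were checked on simulated data. The labels do not say that the samples came from separate animals, so p-values measure the spread between these samples, which may be technical. Positions came from the GENCODE annotation of GRCm38, and promoters from RefSeq. All 10 members entered each comparison in which they passed the count filter, but the text does not give each member's values for each comparison, least of all between the ages. Of the 64 other pathway genes, up to 4 per comparison are named: those past the test, with at least 20 CPM in a class and the smallest p. A gene that this rule also names is not reported here. For likeness, the 3 genes with the highest r among those with at least 50 CPM in a sum were taken. The members, lists and tests were chosen with earlier results of these data known, and the list of immediate early genes after their values were seen. Alternatives were DESeq2 1.42.0, other count filters, doublets kept, at least 1000 genes per cell, resolution 1.0, the replicate number as a block, pericytes low in endothelial RNA, each library left out and, added after seeing the data, removal of the immediate early gene cluster.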

Additional observations from a re-analysis of the deposited data

Results flagged for a closer look

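In groups of 4 libraries, a library was marked when its gap to the next exceeded Dixon's 95% critical value for that number. Over 50 gene and class groups of the 3-month libraries, 3 were marked, and chance marks about 1 in 20. All 3 came from 3-month replicate 1: Notch1 in arterial endothelial cells at 146 CPM, with 327 to 349 CPM in the other 3 libraries, Dll4 in venous endothelial cells at 10.7 CPM, with 18.1 to 18.7 CPM in the others, and Hes1 in smooth muscle cells at 861 CPM, with 494 to 529 CPM in the others.

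Age effects differed between classes by the interaction test for 4 values. Jag1 gave 0.69 for arterial over capillary endothelial cells. For smooth muscle cells over pericytes Notch3 gave -0.97, Hey2 -1.38 and Heyl -1.25. The calls of Notch3 and Hey2 were lost with DESeq2 (adjusted p = 0.091 and 0.083), and that of Heyl without 12-month replicate 3 (-0.96, edgeR adjusted p = 0.072).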

How the results depend on the processing

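Of 78 calls, 71 were kept each time a library was left out and 61 under each other setting, the replicate block not counted. A setting in which a comparison or gene was not tested counts as kept here. Members called higher at 12 months in pericytes, 2 with the settings used, numbered 1 with DESeq2, with CPM of at least 10 in 3 sums and with the replicate block, and 0 with doublets kept, with at least 1000 genes per cell and with pericytes low in endothelial RNA. In capillary cells 1 was lower with DESeq2 and with no filter, and in venous cells 1 was higher and 1 lower with no filter. For smooth muscle cells over pericytes, 9 were higher and 1 lower with doublets kept, where Dll4 (0.47), Jag2 (0.99), Notch4 (0.42) and Hey1 (1.33) turned round, and 3 higher and 3 lower with pericytes low in endothelial RNA, where Jag2 (2.05), Notch3 (-0.36) and Heyl (-0.56) did. In the interactions, 2 were higher for arterial over capillary cells with at least 1000 genes per cell, and for smooth muscle over pericytes 1 was lower with DESeq2 and 0 with pericytes low in endothelial RNA. Without the immediate early gene cluster 0 were lower in arterioles than in arterial-side capillaries. The causes were not tested.

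Leaving out single libraries, members higher and lower at 12 months ranged over 0 to 1 and 0 to 1 in capillary and in venous cells, 0 to 2 higher in pericytes, and 0 in arterial and smooth muscle cells. Those of the interactions ranged over 0 to 2 higher for arterial over capillary cells and 0 to 1 higher and 2 to 3 lower for smooth muscle over pericytes. Between classes, counts ranged over 7 to 7 higher (arterial over capillary), 6 to 7 lower (venous over capillary), 7 to 8 higher (arterial over venous), 5 to 5 higher and 4 to 5 lower (smooth muscle over pericytes), 4 to 5 higher and 4 to 4 lower (pericytes over capillary) and 4 to 5 higher and 5 to 5 lower (smooth muscle over arterial). Between segments the counts did not move from 2 and 2, 7 and 1, 7 and 0, and 5 and 0. In the last of these the genes did change: without 3-month replicate 3 Hes1 lost its call (edgeR adjusted p = 0.083) and Hey2 gained one (edgeR adjusted p = 0.045).

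Deviations of same-numbered libraries of the 2 ages correlated at -0.062 to 0.299 over the classes, with 1 or 2 of 3 libraries correlating best with their own number. With so few libraries this does not settle whether the numbers pair them. Under the replicate block Hey2 in pericytes was 1.59 (edgeR adjusted p = 0.0028) and Notch3 0.92 (edgeR adjusted p = 0.078). With doublets kept no cluster was named arteriole, and resolution 1.0 was not run for segments. DESeq2 gave no adjusted p for Hey2 in pericytes. Depth is limited in pericytes, with 45706 to 778409 UMIs per sum, and in large arteries, with 165310 to 299294.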

Other observations

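Endothelial cells with fenestrated-type markers (1321 cells in 7 libraries) had 71.4 to 162 CPM of Dll4, 4.3 to 18.8 CPM of Jag1, 64.8 to 197 CPM of Notch4, 6.14 to 27.2 CPM of Hey1 and 323 to 981 CPM of Hes1. Their means of Notch4 (132 CPM) and Notch1 (311 CPM) were above those of arterial cells (104 and 306 CPM), with overlapping ranges. Their means of Dll4, Jag1, Jag2, Hey1 and Hey2 were below the arterial ones. A cluster with fibroblast markers (268 cells in 6 libraries) had 234 to 972 CPM of Notch3, 39.3 to 245 CPM of Heyl and 65.6 to 145 CPM of Hey2. An unnamed endothelial cluster led by Apln, Kit and Angpt2 (200 cells in 5 libraries) had 123 to 190 CPM of Dll4 and 18.0 to 50.3 CPM of Hey1. None of these values was compared by a test.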
